A study of Mus musculus with 4 samples.

Results

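The cells described here were the less common leukocytes of the mouse nasal mucosa, and the question was how the library of ribavirin-treated mice with ovalbumin (OVA) allergy differed from the library of ribavirin-treated mice without it. They were all cells outside the 3 largest classes. A cell was left out if it carried at least 2 summed unique molecular identifiers (UMIs, 1 per captured mRNA molecule) of Csf3r, Cxcr2 and Il1r2 (neutrophils), of C1qa, C1qb and C1qc (macrophages), or of Cd3e, Cd3d and Cd3g (T cells). This left 1870 of 8817 cells in Ribavirin-OVA and 4239 of 20278 cells in Ribavirin, together 6109 of the 29095 cells kept in both libraries and of the 72320 kept in the series.

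Each group was a single droplet single-cell RNA-seq library, made from CD45+ cells of nasal mucosa taken from C57BL/6 mice aged 8 weeks. Mice of the Ribavirin-OVA group had received both OVA, the allergen of the allergic rhinitis model, and ribavirin, an antiviral nucleoside analogue that the series describes as a spray against viruses of the nose. Mice of the Ribavirin group had received the drug and no OVA, and the Vehicle-OVA and Vehicle libraries form the same contrast without the drug. The model was described for the study as intraperitoneal sensitisation with OVA and alum followed by intranasal OVA. The labels do not give the number of mice pooled in a library, the dose of the drug or a batch. They name magnetic enrichment of CD45+ cells, whereas the text of the series names a cell sorter. Allergen and library could therefore not be told apart in any comparison below, and every interval is a 95% interval for counting error alone. No difference between the libraries has a test.

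The less common leukocytes hold most of the kinds of cells that act in allergy outside the T cell. Group 2 innate lymphoid cells (ILC2) release IL-5 and IL-13 on epithelial alarm signals, mast cells and basophils release histamine and IL-4 through IgE, and B cells that switch to IgE become plasma cells. Dendritic cells (DCs) carry the allergen to T cells or recruit them with chemokines. Monocytes enter from blood, natural killer (NK) cells and plasmacytoid DCs (pDCs) are linked to antiviral interferon responses, and a monocyte exposed to IL-4 takes up an arginase and chitinase-like gene programme.

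The less common cells were 21.2% of the cells kept in Ribavirin-OVA (20.4 to 22.1, exact binomial interval) and 20.9% in Ribavirin (20.3 to 21.5), a ratio of 1.01 (0.96 to 1.07). The same rule gave a ratio of 0.773 (0.738 to 0.810) between Vehicle-OVA and Vehicle. The libraries did not start from the same depth. The shallowest deposited cell had 500 UMIs in Ribavirin-OVA and 1782 in Ribavirin, the median less common cell had 5781 and 7499 UMIs, and 11.1% and 5.00% of the deposited cells were dropped for 10% or more mitochondrial UMIs. Among the less common cells 402 of Ribavirin-OVA (21.5%, median 1051 UMIs) and 386 of Ribavirin (9.11%, median 2876 UMIs) reached no class, and 6.38% and 7.78% did so among cells of at least 2000 UMIs. Shares within the less common cells are therefore given again at that minimum where it moved them. Only 5 barcodes of less common cells were shared between the libraries. The edge of the rule was well filled, since 1061 and 2155 of the less common cells carried exactly 1 UMI of a left-out group, and 646 and 981 cells were left out at exactly 2.

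Cells were put into classes by summed UMIs of gate genes, at least 3 and more than in any other class, and each class was then compared with check genes that no gate used. At least 6 of the listed check genes were at least 2-fold above the other less common cells in NK cells, ILC2, B cells, plasma cells, pDCs, conventional type 1 and type 2 DCs (cDC1 and cDC2), migratory DCs and both monocyte classes in both libraries. All 10 check genes passed for NK cells, all 8 for B cells, all 9 for plasma cells and all 8 for pDCs. In ILC2 the receptor gene Nmur1 was not above the other cells in Ribavirin-OVA. Cells gated on Ctsk, Acp5, Ocstamp and Dcstamp carried only 1 of their 5 check genes and were given no name. Non-leukocytes were also present despite the CD45 enrichment, with 181 and 527 epithelial-gated cells and 91 and 257 olfactory neuron-gated cells. In epithelial-gated cells 3.63% of the tested genes were at least 2-fold higher and 1.39% lower in Ribavirin-OVA, and in olfactory neuron-gated cells 4.38% and 5.11%.

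NK cells, cDC2 and classical monocytes held smaller shares of the less common cells in Ribavirin-OVA, and plasma cells, ILC2, nonclassical monocytes and mast cells held larger ones. NK cells, which kill infected cells and secrete interferon-gamma, were 97 cells or 5.19% (4.23 to 6.29) in Ribavirin-OVA and 418 cells or 9.86% (8.98 to 10.8) in Ribavirin, a ratio of 0.526 (0.417 to 0.658). At 2000 UMIs the shares were 6.73% and 10.0%. cDC2, the DCs best known for priming helper T cells, were 33 and 201 cells, 1.76% and 4.74%, the lowest ratio of the 11 classes plotted at 0.372 (0.249 to 0.540). Classical monocytes were 144 and 578 cells, 7.70% and 13.6%, a ratio of 0.565 (0.467 to 0.679). That ratio turned to the other side of 1 when no cell was left out. It also turned when every cell was thinned to 1500 UMIs before the rule and the gates were applied. Of all cells in the monocyte gate, 86.9% and 76.2% were left out by the neutrophil, C1q or T cell genes, so the ratio describes the remainder only.

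Plasma cells, the antibody-secreting end stage of B cells, were 220 and 385 cells, 11.8% and 9.08%, a ratio of 1.30 (1.09 to 1.53). At 2000 UMIs they were 14.5% and 9.23%, and over all cells kept, with none left out, 519 of 8817 (5.89%) and 654 of 20278 (3.23%) were in the plasma cell gate. ILC2 were 45 and 66 cells, 2.41% and 1.56%, a ratio of 1.55 (1.03 to 2.29). Their ratio was on the other side of 1 when clusters of cells replaced the gates. Nonclassical monocytes, which patrol the vessel wall, were 88 and 140 cells, 4.71% and 3.30%, a ratio of 1.43 (1.08 to 1.87). Mast cells were 13 and 5 cells, a ratio of 5.89 (1.97 to 21.1). For B cells the ratio was 0.781 (0.619 to 0.979), for pDCs 0.935 (0.788 to 1.11), for cDC1 0.749 (0.499 to 1.10) and for migratory DCs 0.808 (0.518 to 1.23), so that the intervals of the last 3 included no change. The pDC and B cell values moved with the setting. Among cells under 5% mitochondrial UMIs the log2 ratio was -1.72 (-2.28 to -1.21) for pDCs, from 33 and 351 cells, and -1.63 (-2.31 to -1.01) for B cells, from 23 and 229 cells. With no cell left out the pDC value was -0.41 (-0.62 to -0.19), and at 2000 UMIs the pDC ratio was 1.16 (0.973 to 1.37). The B cell ratio fell on the other side of 1 when a single UMI was enough to leave a cell out, and at 2000 UMIs it was 0.928 (0.726 to 1.18).

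The ratios of the same shares in the vehicle pair were 0.213 for NK cells, 0.270 for cDC2 and 0.414 for classical monocytes, all below 1 as under ribavirin. They were 0.227 for plasma cells, 0.731 for ILC2, 0.833 for nonclassical monocytes and 0.358 for pDCs. In Vehicle-OVA 55.6% of the less common cells reached no class and in Vehicle 13.9%, which lowers the share of every class there. At 2000 UMIs the ratios of ILC2 and nonclassical monocytes were on the other side of 1, at 1.31 and 1.36, and those of NK cells, cDC2, classical monocytes, plasma cells and pDCs were 0.376, 0.451, 0.644, 0.316 and 0.582. The difference between the pairs was not tested, as each has a single library on either side.

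**Figure D1:**
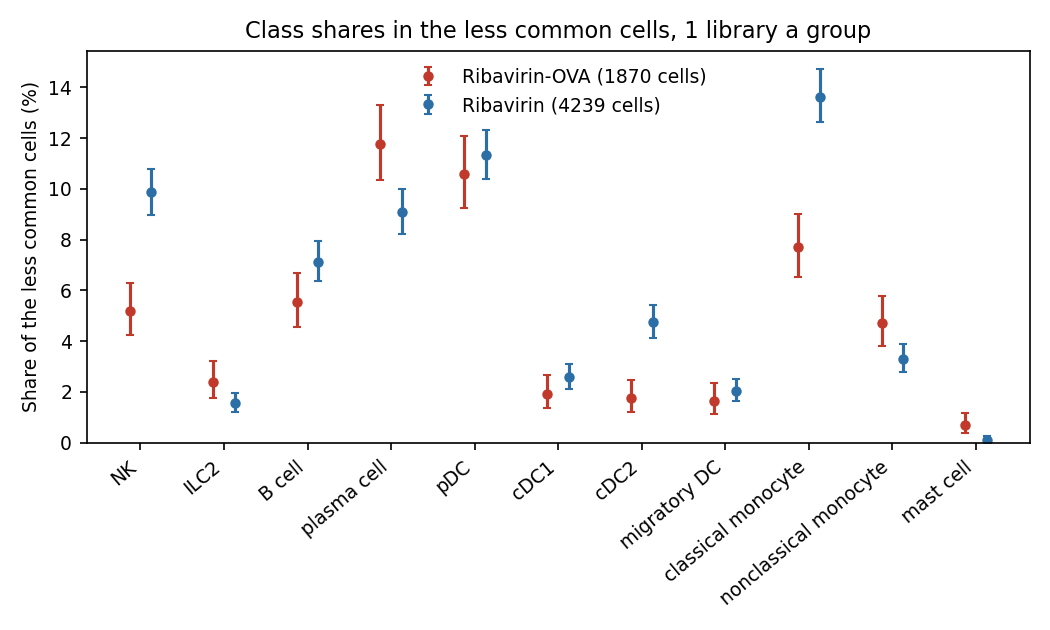
Share of the less common cells (per cent) held by each named class in Ribavirin-OVA (red) and Ribavirin (blue), with exact 95% binomial intervals for counting error, 1 library a group. NK cells, cDC2 and classical monocytes sit lower in Ribavirin-OVA and plasma cells sit higher, while the pDC intervals overlap.

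The type 2 cytokine UMIs of Ribavirin-OVA lay almost wholly outside the less common cells. Over all cells kept, Il4 had 1171 UMIs in Ribavirin-OVA and 39 in Ribavirin, Il5 had 625 and 110, and Il13 had 2017 and 77. Less common cells held 4.61% of the Il4 UMIs of Ribavirin-OVA, 4.16% of its Il5 and 1.49% of its Il13. In Ribavirin they held 38.5%, 46.4% and 29.9%. Most of the rest lay in cells that carried the ILC2 gate genes Gata3, Il1rl1 and Il17rb and were left out: 84.5% of Il4, 92.6% of Il5 and 92.3% of Il13 in Ribavirin-OVA, against 15.4%, 30.9% and 46.8% in Ribavirin.

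The rule divided the ILC2-gated cells unequally. Over all cells kept 260 (2.95%) were in that gate in Ribavirin-OVA and 177 (0.87%) in Ribavirin, and 215 and 111 of them, 82.7% and 62.7%, were left out. Of the ones left out, 92.6% and 87.4% had a UMI of Cd3g, 72.6% and 59.5% of Cd3e, and 76.7% and 73.0% of Cd3d, the chains of the T cell receptor complex. A UMI of Il1r2 was present in 51.2% and 30.6%, and of C1qa in 30.2% and 17.1%.

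In the ILC2 that remained under the rule, the intervals of the cytokine ratios included no change, but the Il13 and Il4 values depended on which cells were left out. Il13, the driver of mucus and goblet cell change, stood at 52.9 CPM (counts per 1000000 UMIs) in Ribavirin-OVA (12 UMIs in 6 of 45 cells) and 53.0 CPM in Ribavirin (17 UMIs in 5 of 66 cells), a ratio of 0.998 (0.435 to 2.22). Il5, which sustains eosinophils, stood at 101 CPM and 147 CPM, a ratio of 0.692 (0.401 to 1.16), with 69.6% of the Ribavirin-OVA UMIs in a single cell. Il4 had 5 and 11 UMIs, a ratio of 0.643 (0.175 to 2.01). With no cell left out, the ILC2 gate also held the cells with CD3 UMIs described above. It then gave 770 and 51.4 CPM of Il13, 247 and 78.6 CPM of Il5, and 408 and 16.5 CPM of Il4. Il13 also stood further apart under other settings, on very few UMIs in Ribavirin and without a counting interval. It stood at 77.1 and 5.06 CPM when a single UMI was enough to leave a cell out. With every cell thinned to 1500 UMIs it stood at 201 and 42.6 CPM, and Il4 at 88.4 and 28.4 CPM. Cells were thinned there before the rule and the gates were applied, so the class held other cells, 83 and 47. The closeness of Il13 therefore held for this rule and not for those settings. Areg, the epithelial growth factor of these cells, stood at 635 and 692 CPM, a ratio of 0.917 (0.738 to 1.14).

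**Figure D2:**
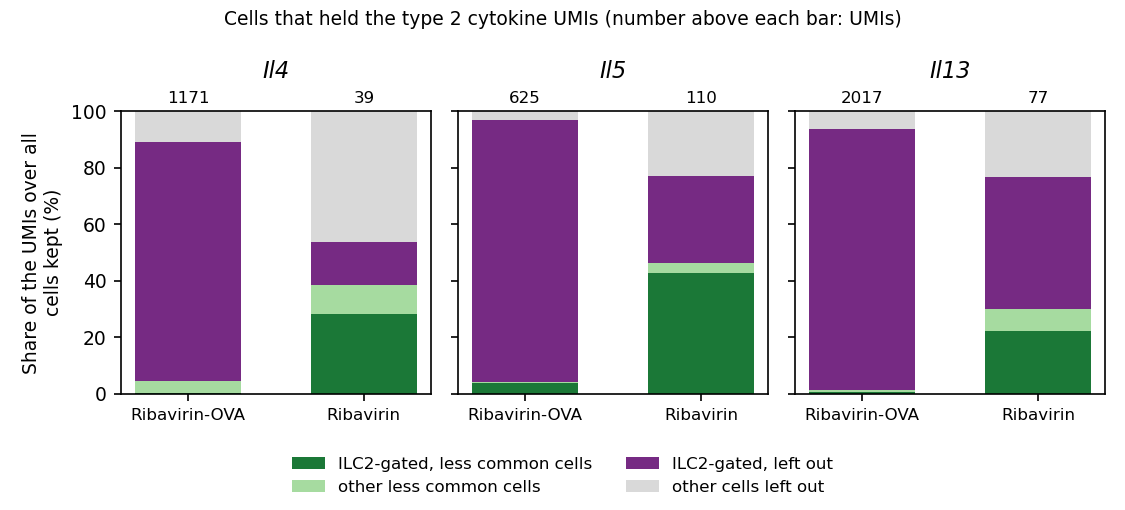
Share of the Il4, Il5 and Il13 UMIs over all cells kept (per cent) by where they lay, with the number of UMIs above each bar. Purple, the ILC2-gated cells left out by the rule, most of them with CD3 UMIs, fills most of the Ribavirin-OVA bars (84.5% to 92.6%). Green, the less common cells, holds 1.49% to 4.61% there and 29.9% to 46.4% in Ribavirin.

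Il2ra, Icos, Bhlhe40 and Cysltr1 were higher in the remaining ILC2 of Ribavirin-OVA. They were the 4 genes at least 2-fold higher among 12 tested of the list of ILC2 activation and receptor genes, and none was lower, beside 16.4% of all 1577 tested genes higher and 7.23% lower in this class. These calls, here and below, are of size alone, on log2 (CPM + 5) for genes with at least 50 UMIs over both libraries. Il2ra, the high-affinity IL-2 receptor chain, stood at 635 and 259 CPM, a ratio of 2.45 (1.86 to 3.25). Icos, a costimulatory receptor, stood at 714 and 296 CPM, a ratio of 2.41 (1.86 to 3.14). Bhlhe40, a transcription factor of cytokine-producing lymphocytes, stood at 1429 and 580 CPM, a ratio of 2.46 (2.05 to 2.97). Cysltr1, a receptor for cysteinyl leukotrienes, stood at 260 and 93.6 CPM, and its direction turned when cells were thinned to 1500 UMIs. Tnfrsf18 and Ltb4r1, also of the list, had log2 ratios of -0.74 and -0.45. The gate gene Il1rl1, the IL-33 receptor, stood at 2147 and 820 CPM and Gata3 at 1702 and 886 CPM, values that the gate itself selected.

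Markers of T cells moved with these genes, as the 9 genes of the T cell list summed to 234 CPM in the ILC2 of Ribavirin-OVA and 81.1 CPM in those of Ribavirin, and their part in the result was not tested. Ikzf2, Ctla4 and Hlf were chosen after their values were seen. Ikzf2, a transcription factor also of regulatory T cells, was at 520 and 43.7 CPM, a ratio of 11.9 (6.83 to 22.5), which was lost when no cell was left out. Ctla4, an inhibitory receptor also of regulatory T cells, was at 375 and 74.9 CPM, a ratio of 5.01 (3.15 to 8.24), from 19 of 45 and 6 of 66 cells. Hlf was at 900 and 196 CPM, a ratio of 4.58 (3.44 to 6.17). The vehicle pair gave ratios of 5.02 for Ikzf2, 8.96 for Ctla4 and 1.77 for Hlf.

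Mast cells were few and differed in their chymase genes. Every one of the 13 mast cells of Ribavirin-OVA had UMIs of Mcpt4 (1126 UMIs, 7039 CPM) and of Cma1 (828 UMIs, 5176 CPM), chymase genes of connective tissue mast cells, and none of the 5 of Ribavirin had either. Against a floor of 3 counts in the Ribavirin mast cells, Mcpt4 was at least 52.2-fold higher and Cma1 at least 38.4-fold higher. Both are gate genes, so that the cells of Ribavirin entered the class through its other genes. Cpa3, the mast cell carboxypeptidase that no gate used, stood at 5801 and 2381 CPM, a ratio of 2.44 (1.85 to 3.28), and Kit at 1125 and 1168 CPM. Il4 had 9 UMIs in 5 of the 13 mast cells and 2 UMIs in 2 of the 5. Basophils were 3 and 1 cells, because 17 of the 20 basophil-gated cells of Ribavirin-OVA were left out by the neutrophil genes.

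Plasma cells had the highest number of genes called. At least 2-fold higher were 1115 of 8299 genes (13.4%) and lower 169 (2.04%). In each of the 10 leukocyte classes the median gene lay above 0, by 0.18 to 0.43 on the log2 scale, beside ribosomal protein genes with medians of -0.94 to -0.59. Once centred on the median gene, the share of the called genes that were higher went from 86.8% to 26.7% in plasma cells, 68.2% to 18.4% in pDCs, 68.0% to 22.2% in B cells, 65.0% to 25.4% in NK cells, 77.6% to 34.8% in classical monocytes and 57.3% to 27.4% in nonclassical monocytes. Counts of higher and lower genes therefore say little of their balance, and a ratio near 1 is to be read against that shift.

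Pld4, B4galt1 and Il5ra were highest in plasma cells by the naming rule on log2 (CPM + 5). Il5ra, the receptor chain for IL-5, was found with 99 UMIs in 47 of 220 cells of Ribavirin-OVA and 1 UMI in 385 cells of Ribavirin. Its levels were 29.3 and 0.197 CPM, a ratio of 149 (26.2 to 5954) that rests on that single UMI. No pDC of either library had an Il5ra UMI, at median depths of 10806 and 8665 UMIs per pDC against 15048 and 12231 per plasma cell. B4galt1, a Golgi galactosyltransferase, stood at 85.4 and 8.45 CPM, a ratio of 10.1 (7.31 to 14.3). Pld4 stood at 159 and 18.3 CPM, a ratio of 8.67 (6.95 to 10.9). Cxcr4, the receptor that holds plasma cells in their niches, stood at 353 and 72.9 CPM, a ratio of 4.84 (4.30 to 5.45). In the vehicle pair the ratios were 19.7 for Il5ra, 11.3 for B4galt1, 7.62 for Pld4 and 5.26 for Cxcr4.

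Jchain and Ccr10 were lower in the plasma cells of Ribavirin-OVA. Jchain, which joins IgA and IgM into polymers, took 38979 CPM in Ribavirin-OVA and 100402 CPM in Ribavirin, a value 2.58-fold (2.56 to 2.59) lower. Ccr10, a homing receptor of IgA plasma cells, stood at 173 and 631 CPM, 3.66-fold (3.35 to 4.01) lower. Tnfrsf17, the survival receptor BCMA and a gate gene, stood at 108 and 393 CPM. Jchain and Tnfrsf17 were the 2 lower genes among 5 tested of the plasma cell list, and none was higher. Immunoglobulin heavy and light chain genes were not analysed here, so that class switching could not be read. Xbp1, the secretory transcription factor, was at 3330 and 2423 CPM, a ratio of 1.37 (1.34 to 1.41) that was close to the shift of the median gene. Of 25 tested genes of the secretory list 4 were higher (Hspa5, Hsp90b1, Canx, Sec61a1) and 1, Ssr4, lower. That was near the 13.4% of all tested genes higher and 2.04% lower in this class, and Ssr4 was lower in all 10 leukocyte classes. Ly6k, Serpina3f and Cxcl10 were the lowest by the naming rule, with Ly6k at 15.4 and 124 CPM and Serpina3f at 30.8 and 210 CPM.

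Of 25 tested cell cycle genes 14 were at least 2-fold higher in plasma cells and none lower, with a median log2 ratio of 1.43 beside 0.43 over all genes. Top2a, the mitotic topoisomerase, stood at 334 and 106 CPM, a ratio of 3.14 (2.83 to 3.48), and Mki67 at 533 and 178 CPM, a ratio of 2.99 (2.76 to 3.24). After each cell had been thinned to 1500 UMIs, a measure chosen after the data were seen, 34.6% (28.2 to 41.4) of the plasma cells of Ribavirin-OVA and 8.83% (6.19 to 12.1) of those of Ribavirin had at least 3 cell cycle UMIs. For this measure, here and below, cells were classed at full depth and thinned afterwards. Shallower cells, 9 and 0, were left out, and without thinning the shares were 77.3% and 46.5%. In the vehicle pair the thinned shares were 25.6% and 9.88%. Unsupervised clusters were named by the most frequent class of their gated cells, and their counts take in cells of any class. Of those named plasma cell, 1 held 172 cells of Ribavirin-OVA and 10 of Ribavirin, another 12 and 346. A further such cluster held 67 and 75, with 60% of its gated cells in the plasma cell gate. Different clusters thus held most of the cells so named in the 2 libraries.

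Of 7 tested IL-4-responsive genes 5 were higher in plasma cells, Chil3, Chil4, Cish, Socs2 and Mrc1, beside 13.4% of all 8299 tested genes. Mrc1 was a gate gene of macrophages and Chil3 a check gene of monocytes, and the part of RNA of other cells in their levels was not tested. The cytokine-induced inhibitors Cish (69.7 and 10.0 CPM, a ratio of 6.95, 5.11 to 9.60) and Socs2 (283 and 58.8 CPM, a ratio of 4.82, 4.23 to 5.51) were found in 101 and 160 of the 220 cells of Ribavirin-OVA. Chil4, a chitinase-like gene of epithelium, was at 153 and 4.72 CPM here and higher in most classes. Its level in epithelial-gated cells was 24682 CPM in Ribavirin-OVA and 1213 CPM in Ribavirin, and the part of free RNA in its level elsewhere was not tested. The mucus-associated gene Bpifa1 was at least 2-fold higher in all 10 classes, the only gene to be so among the 1240 tested in all of them, while 18 were lower in all. Those 18 included Obp1a, Obp2a and Lcn11 and ribosomal protein genes such as Rpl34 and Rps3. The part of free RNA in them was not tested.

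**Figure D3:**
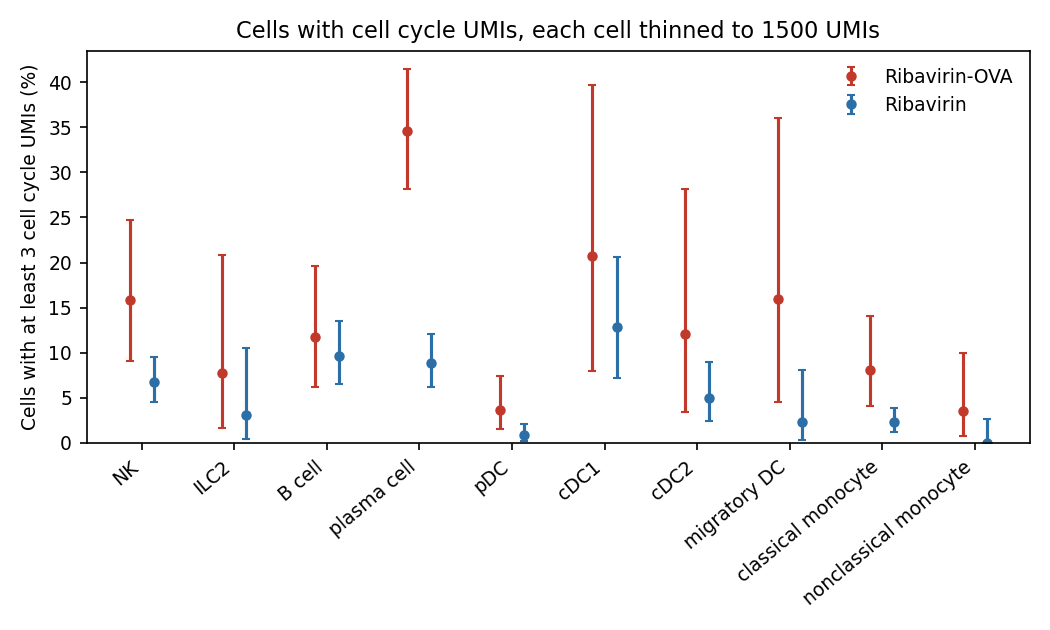
Share of the cells of each class (per cent) with at least 3 UMIs of the cell cycle list after thinning to 1500 UMIs per cell, with exact 95% binomial intervals, in Ribavirin-OVA (red) and Ribavirin (blue). Plasma cells stand at 34.6% and 8.83% with intervals apart. The B cell intervals overlap, at 11.8% and 9.60%.

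B cells shared some of these differences. Fcer2a, the low-affinity IgE receptor CD23 that IL-4 induces, stood at 185 and 63.1 CPM, a ratio of 2.93 (2.18 to 3.95), from 36 of 104 and 46 of 302 cells, and the vehicle ratio was 2.68. Lifr stood at 140 and 7.28 CPM, a ratio of 19.3 (9.70 to 43.5), and Socs2 at 100 and 10.5 CPM, a ratio of 9.55 (5.20 to 18.9). Ccl22, the highest by the naming rule at 691 and 3.23 CPM, had 99.8% of its 434 UMIs of Ribavirin-OVA in a single cell. Of 7 tested IL-4-responsive genes 4 were higher (Chil4, Fcer2a, Socs2, Ccl22) and 1 lower (Chil3), beside 9.29% of 5071 genes higher and 4.38% lower.

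Cell cycle genes were higher in 12 of 23 tested in B cells and lower in none. Top2a stood at 572 and 218 CPM, a ratio of 2.62 (2.23 to 3.08), against 0.695 in the vehicle pair, and Mki67 at 435 and 192 CPM. Thinned to 1500 UMIs, however, 11.8% and 9.60% of B cells had at least 3 cell cycle UMIs, with overlapping intervals. Only 21 and 35 cells carried Top2a.

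Granule genes made up the lowest genes of B cells. Ngp stood at 11.2 and 571 CPM, Camp at 11.2 and 522 CPM and Chil3 at 14.3 and 133 CPM, with 30.7%, 29.6% and 30.9% of the UMIs of Ribavirin in a single cell. All 3 turned direction when clusters replaced the gates. The 9 neutrophil genes summed to 303 CPM in the B cells of Ribavirin-OVA and 3929 CPM in those of Ribavirin, and 10 of 12 monocyte inflammatory genes were lower beside them. The part of neutrophil RNA in these values was not tested.

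NK cells of Ribavirin-OVA had less Il7r, the IL-7 receptor of innate lymphoid cells, and less Kit, the stem cell factor receptor. Il7r had 13 UMIs in 5 of 97 cells and 381 UMIs in 67 of 418 cells, 20.4 and 214 CPM, which was 10.5-fold (6.08 to 19.95) lower. Kit had 3 UMIs in 3 cells and 116 UMIs in 64 cells, a ratio of 0.072 (0.0146 to 0.216). Neither was so low in the vehicle pair, where the ratios were 0.758 and 1.23.

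In NK cells the cytotoxic genes Gzma, Gzmb and Prf1 did not reach 2-fold, while the chemokine genes Ccl5 and Xcl1 were lower. Gzma stood at 9095 and 7177 CPM, a ratio of 1.27 (1.23 to 1.31), Gzmb at 943 and 774 CPM, a ratio of 1.22 (1.10 to 1.34), and Prf1 at 237 and 278 CPM, a ratio of 0.851 (0.704 to 1.02). Ccl5, a T cell chemoattractant, stood at 2725 and 12385 CPM, 4.55-fold (4.33 to 4.78) lower, and was found in 86 of 97 and 400 of 418 cells. Xcl1, the ligand that draws cDC1, stood at 152 and 670 CPM, 4.41-fold (3.59 to 5.49) lower. Ifng stood at 179 and 293 CPM, 1.64-fold (1.34 to 2.03) lower. Of 16 tested genes of the cytotoxic list 4 were lower (Gzmc, Ccl3, Ccl5, Xcl1) and none higher, beside 3.25% of 5751 genes lower and 6.03% higher. Gzmc was found in 1 cell of Ribavirin-OVA.

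Of 13 tested cell cycle genes 8 were higher in NK cells and 1, Cenpa, lower. Pcna, the DNA replication clamp, stood at 299 and 86.6 CPM, a ratio of 3.45 (2.78 to 4.30), in 56 of 97 and 114 of 418 cells. Mki67 had 51.1% of its UMIs of Ribavirin-OVA in a single cell. Rrm1 was among the highest, at 81.4 and 18.0 CPM, and its direction turned when cells were thinned before they were classed. Among cells classed at full depth, the thinned share with cell cycle UMIs was 15.8% (9.12 to 24.7) and 6.70% (4.50 to 9.54). Rbm12 (72.0 and 15.8 CPM) and Atxn1 (98.7 and 23.6 CPM) were also highest by the rule, and Hist1h2ae (9.40 and 64.1 CPM) lowest. Among MHC class II genes 4 of 5 tested were lower, with Cd74 at 110 and 293 CPM, and 29.4% of the UMIs of Ribavirin lay in a single cell.

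The classical monocyte class had higher Spp1, Ccl24 and Arg1 in Ribavirin-OVA, at levels that fell when Ccr2 was taken out of its gate. Spp1, the matrix protein osteopontin, stood at 1425 and 34.9 CPM, a ratio of 40.8 (34.7 to 48.4). Ccl24, an eosinophil attractant, stood at 317 and 8.44 CPM, a ratio of 37.5 (26.8 to 53.9), and Arg1, which IL-4 induces, at 1076 and 63.8 CPM, a ratio of 16.9 (14.8 to 19.3). They were carried by 49, 36 and 54 of 144 cells and by 37, 18 and 40 of 578 cells. In pDCs, which are not known to use them, Spp1 stood at 24.6 CPM, Ccl24 at 10.9 CPM and Arg1 at 10.4 CPM in Ribavirin-OVA and were found in 49, 21 and 20 of 198 cells. Of 12 tested IL-4-responsive genes 6 were higher (Arg1, Chil3, Chil4, Cish, Ccl24, Mrc1) and 1 lower (Batf3), beside 9.07% of 7699 genes higher and 2.61% lower. The vehicle pair had ratios of 55.0 for Spp1, 635 for Ccl24 and 190 for Arg1.

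These monocytes were poor in the genes that present antigen to helper T cells. H2-Eb1 stood at 556 and 3066 CPM, 5.51-fold (5.10 to 5.97) lower, Cd74 at 2083 and 8487 CPM, 4.08-fold (3.91 to 4.25) lower, and 6 of 9 tested MHC class II genes were lower and none higher. No MHC class I gene of 12 passed 2-fold in either direction. Il1b stood at 1258 and 3213 CPM, 2.55-fold (2.42 to 2.70) lower, while its vehicle ratio was 1.04. Ccl5 and Ly6i were lowest by the naming rule, Ccl5 at 126 and 608 CPM and Ly6i at 38.5 and 188 CPM.

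Part of the class was not clearly monocytic. Of the 144 and 578 cells 71 (49.3%) and 262 (45.3%) had no UMI of the gate genes Vcan or F13a1 and entered through Ccr2, which lymphocytes also carry. Icos, a lymphocyte gene, had 100 UMIs in 29 cells of Ribavirin-OVA and 12 UMIs in 10 cells of Ribavirin, and Gzma had 417 and 197 UMIs. The summed T cell list was 70.2 and 15.5 CPM, the neutrophil list 1604 and 598 CPM, and the list of C1q macrophages 1799 and 4609 CPM. With Ccr2 taken out of the gate, a choice made after these genes were seen, 46 and 138 cells remained, 2.46% and 3.26% of the less common cells, and Icos had 1 and 0 UMIs.

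In those stricter monocytes the directions were kept for the 8 genes plotted, the ratios of Spp1, Ccl24 and Arg1 were smaller, and Chil3 and Mrc1 were no longer 2-fold higher. Spp1 stood at 107 and 10.9 CPM, a ratio of 9.74 (5.13 to 20.04), and Ccl24 at 84.0 and 8.21 CPM, a ratio of 10.2 (4.90 to 23.9). Arg1 stood at 340 and 98.5 CPM, a ratio of 3.45 (2.69 to 4.44). The Ribavirin-OVA levels of all 3 were well below those of the wider class, so most of its signal lay in cells that entered it through Ccr2. Chil3 had a ratio of 1.15 (1.04 to 1.27), and Mrc1 of 0.919 (0.373 to 2.08) from 9 and 22 UMIs. H2-Eb1 was 8.79-fold (6.67 to 11.8) lower, Cd74 6.64-fold lower, Ifitm3 3.12-fold lower and Il1b 2.29-fold lower. Top2a had a ratio of 5.86.

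Of 19 tested cell cycle genes 18 were higher in the wider monocyte class and none was lower. Top2a stood at 151 and 19.8 CPM, a ratio of 7.62 (5.87 to 9.94), but was carried by 16 and 31 cells with 35.2% of the Ribavirin-OVA UMIs in a single cell, and its direction turned when clusters replaced the gates. Mki67, at 157 and 33.8 CPM, turned with clusters and with thinning before cells were classed, where the class held 267 and 482 cells. Among cells classed at full depth, the thinned share with cell cycle UMIs was 8.09% (4.11 to 14.0) and 2.25% (1.20 to 3.82). The vehicle ratios of Top2a and Mki67 were 0.959 and 0.851.

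**Figure D4:**
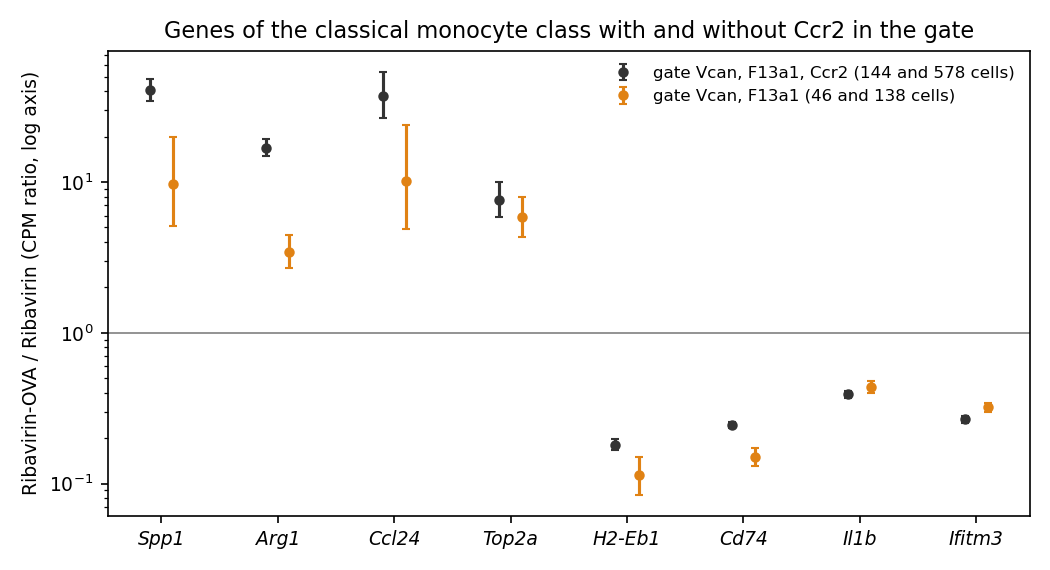
Ratio of Ribavirin-OVA to Ribavirin (CPM, log axis) for 8 genes of classical monocytes, with 95% counting intervals, for the gate with Ccr2 (black, 144 and 578 cells) and without it (orange, 46 and 138 cells). Spp1, Arg1 and Ccl24 stay above 1 with smaller ratios, and H2-Eb1, Cd74, Il1b and Ifitm3 stay below 1.

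Nonclassical monocytes had lower levels of inflammatory and chemokine genes in Ribavirin-OVA. Of 15 tested genes of the monocyte inflammatory list 11 were at least 2-fold lower and none higher, beside 4.83% of 3952 genes lower and 6.48% higher. Cxcl2, a neutrophil attractant, stood at 132 and 622 CPM, 4.71-fold (3.70 to 6.05) lower, against a ratio of 2.53 in the vehicle pair. Il1b stood at 942 and 2109 CPM, 2.24-fold (2.03 to 2.47) lower, and Ccl2, a chemokine for monocytes, at 23.7 and 124 CPM, 5.23-fold (2.98 to 9.91) lower. Nr4a1, the factor they depend on, and Spn did not reach 2-fold. Nr4a1 stood at 2439 and 1495 CPM, and Spn at 625 and 328 CPM, a ratio of 1.91 (1.62 to 2.24). MHC class II genes were lower in 3 of 6. Lyz1 had 0 and 53 UMIs, and was at least 12.8-fold lower, with 88.7% of the UMIs in a single cell. The genes with the highest ratios, Bpifb4, Gpx6 and Bpifb6, had 91.5%, 97.1% and 95.9% of their UMIs of Ribavirin-OVA in a single cell. The C1q macrophage list summed to 1424 and 3409 CPM here, and its part was not tested.

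In cDC2 the chemokine genes Ccl17 and Ccl22 were lower and Ccl24 was higher in Ribavirin-OVA. Ccl17, a ligand of CCR4 on type 2 helper T cells, had 0 UMIs in 33 cells of Ribavirin-OVA and 371 UMIs in 38 of 201 cells of Ribavirin, and was at least 29.4-fold lower. Ccl22, the second CCR4 ligand, had 1 and 132 UMIs, a ratio of 0.0319 (0.000801 to 0.181). Ccl24 went the other way at 297 and 10.2 CPM, a ratio of 29.0 (18.1 to 49.0), with 64.5% of the Ribavirin-OVA UMIs in a single cell. Mgl2, a lectin of type 2 DCs, stood at 961 and 263 CPM, a ratio of 3.66 (3.22 to 4.16). Of 10 tested MHC class II genes 2 were higher (H2-DMb2 and Ciita) and none lower, and Cd74 stood at 14461 and 15090 CPM. Of 16 tested monocyte inflammatory genes 9 were lower and none higher, beside 4.82% of 5337 genes lower and 12.5% higher in cDC2. Ccr7, which takes DCs to the lymph node, had 2 and 131 UMIs, and its direction turned under thinning and with no cell left out.

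In migratory DCs, 31 and 87 cells, the maturation genes were close to even. None of 16 tested genes of the maturation list passed 2-fold in either direction, beside 10.1% of all genes higher and 5.60% lower. Fscn1, a gate gene and the actin bundler of mature DCs, stood at 2387 and 1942 CPM, Ccr7 at 2267 and 2921 CPM, and the costimulatory gene Cd40 at 198 and 274 CPM. Ccl5 stood at 470 and 5409 CPM, 11.5-fold (9.68 to 13.8) lower. Ccl22 stood at 1383 and 726 CPM, a ratio of 1.90 (1.67 to 2.17), with 71.4% of the Ribavirin-OVA UMIs in a single cell, and was lower once that cell was left out. In cDC1, which present antigen of dead cells, 10 of 20 tested cell cycle genes were higher and none lower, beside 6.69% and 2.94% of all genes. Pcna was at 215 and 61.6 CPM there, a ratio of 3.49 (2.61 to 4.68), with 37.5% of the Ribavirin-OVA UMIs in 1 of 36 cells. The thinned shares of cDC1 with cell cycle UMIs were 20.7% (7.99 to 39.7) and 12.8% (7.20 to 20.6), with overlapping intervals. Shallower cDC1, 7 and 0, were left out of them. Xcr1, the receptor for Xcl1 and a gate gene, was at 1056 and 685 CPM, and none of 10 MHC class II genes passed 2-fold.

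pDCs, the leukocyte class with the second highest number of cells in both libraries, had the lowest share of genes called. At least 2-fold higher were 4.26% of 8053 genes and lower 1.99%. Dse stood at 92.3 and 9.88 CPM, a ratio of 9.34 (6.67 to 13.4), in 90 of 198 and 37 of 480 cells. Ptcra, the pre-T cell receptor chain that pDCs share with developing T cells, stood at 89.5 and 15.3 CPM, a ratio of 5.85 (4.39 to 7.88), and Slc30a4, a zinc transporter, at 149 and 25.6 CPM, a ratio of 5.82 (4.66 to 7.30). The vehicle ratios were 5.46, 9.18 and 5.74. Ccr9, a gate gene and their gut homing receptor, stood at 2828 and 1790 CPM.

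Tlr7 and Irf7, which act in the sensing of virus, did not reach 2-fold in pDCs, and the median gene of the class had a log2 ratio of 0.26. Tlr7, the single-stranded RNA sensor, stood at 151 and 110 CPM, a ratio of 1.37 (1.19 to 1.59), and Irf7, the master factor of interferon production, at 175 and 133 CPM, a ratio of 1.32 (1.15 to 1.50). Xbp1 stood at 873 and 412 CPM, a ratio of 2.12 (1.98 to 2.26). Ly6d stood at 933 and 2666 CPM, 2.86-fold (2.72 to 3.00) lower. The chemokine Ccl4 stood at 603 and 1831 CPM, 3.04-fold (2.86 to 3.23) lower, and 5 of 7 tested genes of the cytotoxic list were lower (Gzma, Ccl3, Ccl4, Ccl5, Cd7). Of these, Gzma had 68.9% of its UMIs of Ribavirin in a single cell. The lowest genes by the rule were Hist1h1b, Hist1h1e and Calm4. Hist1h1b had 2 and 230 UMIs, with 49.1% of the latter in a single cell. A cluster named pDC held 37 cells of Ribavirin and none of Ribavirin-OVA.

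Ifitm3 and Isg15, which interferon induces, were lower in Ribavirin-OVA in all 10 leukocyte classes, while the wider list of interferon-stimulated genes was divided. At least 2-fold lower were 6 of 9 tested genes in B cells, 5 of 9 in migratory DCs, 9 of 19 in cDC2, 6 of 17 in nonclassical monocytes, 4 of 18 in plasma cells and 3 of 13 in cDC1. In classical monocytes 6 of 30 were lower and 2 higher, and in NK cells 2 of 14 and in pDCs 2 of 21 were lower. In ILC2 none of 2 tested was lower. The median log2 ratio of the list went from -1.35 in migratory DCs through -0.05 in classical monocytes to 0.11 in pDCs over these 9 classes, ILC2 aside. Ifitm3, which blocks the entry of viruses, was lower in all 10, from 2.12-fold in ILC2 to 10.9-fold (6.66 to 19.3) in migratory DCs, and only the ILC2 interval (0.643 to 9.03) included no change. Its highest levels were in nonclassical monocytes, 1590 and 4985 CPM, classical monocytes, 1100 and 4125 CPM, and cDC2, 1004 and 3840 CPM, where it was 3.14-fold, 3.75-fold and 3.82-fold lower. Isg15, the ubiquitin-like modifier, was also lower in all 10 classes, from 1.99-fold (1.55 to 2.59) in pDCs to 13.2-fold (3.47 to 112) in B cells. In the vehicle pair the Ifitm3 ratio was 1.24 in cDC1 and below 1 in the other 9 classes, and the Isg15 ratio was above 1 in NK cells (1.71) and ILC2 (1.46).

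The chemokines Cxcl9 and Cxcl10, which interferon-gamma induces and which attract CXCR3+ T cells, were lower in some classes and near even in others. In cDC2 Cxcl9 stood at 12.9 and 369 CPM, 28.5-fold (13.1 to 78.0) lower, and Cxcl10 at 23.7 and 369 CPM, 15.5-fold (8.64 to 31.3) lower. In nonclassical monocytes Cxcl9 had 0 UMIs in 88 cells and 192 UMIs in 7 of 140 cells, and was at least 46.4-fold lower, with 47.9% of the UMIs in a single cell. Migratory DCs had 0 UMIs of Cxcl9 in Ribavirin-OVA and were at least 23.2-fold lower. In classical monocytes Cxcl10 stood at 275 and 294 CPM, a ratio of 0.935 (0.825 to 1.06), and in NK cells at 48.5 and 40.5 CPM, a ratio of 1.20 (0.760 to 1.85). In cDC1 Cxcl9 was 2.80-fold (2.16 to 3.68) lower, a direction that turned under thinning.

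By list, interferon-stimulated genes at least 2-fold lower were 9 of 19 tested in cDC2, 6 of 9 in B cells, 6 of 17 in nonclassical monocytes, 5 of 9 in migratory DCs, 6 of 30 in classical monocytes, 4 of 18 in plasma cells, 3 of 13 in cDC1, 2 of 14 in NK cells and 2 of 21 in pDCs. None was at least 2-fold higher in these classes but for Rsad2 and Cmpk2 in classical monocytes. The share of all genes called lower was 2.94% in cDC1, 1.99% in pDCs and 2.04% in plasma cells. In B cells the median of the list was -1.30 on the log2 scale beside 0.31 over all genes, and in pDCs it was 0.11 beside 0.26. Rsad2, the antiviral viperin, stood at 89.8 and 39.5 CPM in classical monocytes, a ratio of 2.27 (1.77 to 2.91), with 34.3% of the Ribavirin-OVA UMIs in a single cell.

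**Figure D5:**
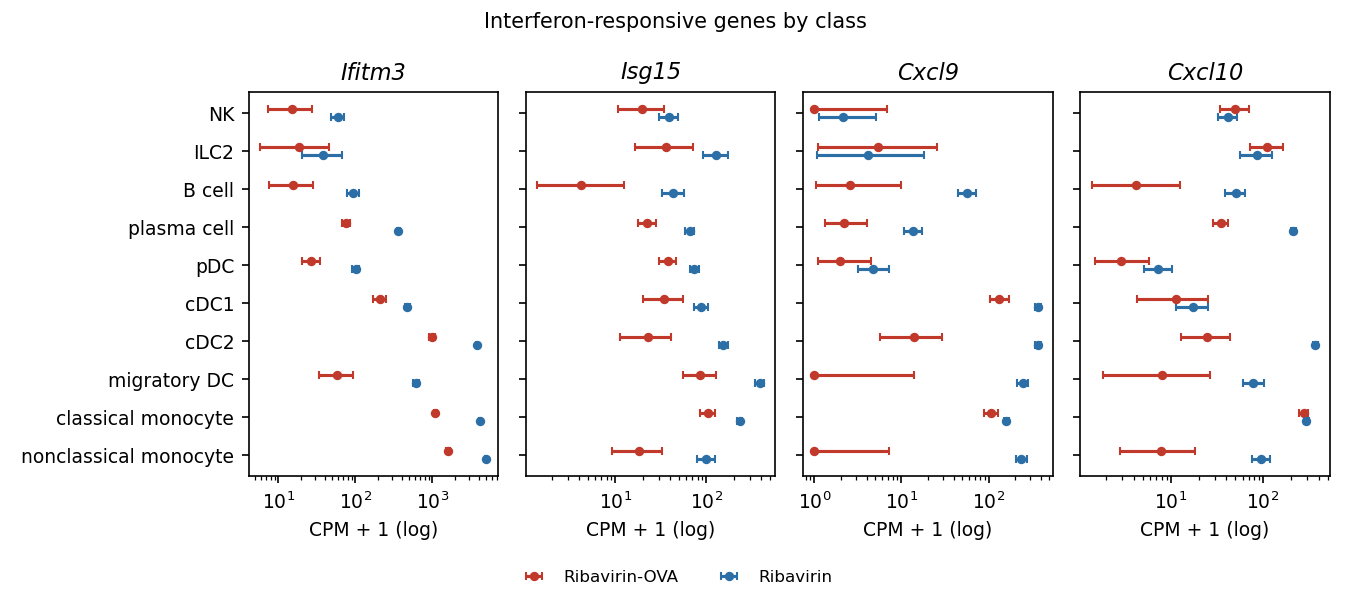
Level (CPM + 1, log axis) of Ifitm3, Isg15, Cxcl9 and Cxcl10 in each class for Ribavirin-OVA (red) and Ribavirin (blue), with exact 95% Poisson intervals of the summed UMIs. Ifitm3 and Isg15 lie lower in Ribavirin-OVA in all 10 classes, while the Cxcl10 intervals of NK cells, ILC2 and classical monocytes overlap.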

How the data were processed

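Tissue was dissociated with enzymes and the libraries were made on a 10x Chromium instrument, per the labels. The submitters' processing notes name Cell Ranger 5.0.0 and mm10. The authors deposited a matrix of UMI counts per gene and cell barcode for each of the 4 libraries, with no cell annotation. Cells with at least 500 UMIs, at least 200 genes and under 10% mitochondrial UMIs were kept, the 3 largest classes were left out as stated, and cells were assigned to 22 gated classes (at least 3 gate UMIs, highest class, ties ambiguous).

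The UMIs of all cells of a class in a library were added up and given as CPM. Intervals are 95% exact Poisson, Clopper-Pearson or conditional binomial and cover counting error only. Ratios over genes used log2 (CPM + 5) for genes with at least 50 UMIs, and called at least 2-fold. A value of 0 was set to 3 counts per library for a bound. With 1 library a group there was no test.

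Named genes were the 3 highest and 3 lowest per class of at least 50 cells in each library, the type 2 cytokines and members of the 23 gene lists; exceptions are stated. Cells, gates and lists were chosen with earlier results of these data known. Scrublet marked 0.488% of the kept cells of Ribavirin-OVA, too few for it to have worked, and 3.45% of Ribavirin; marked cells were kept, and left out as an alternative. Sequence tables were not used. The computation was tested on simulated data. Alternatives changed the cell filters, gates, depth, scaling, pseudocount and gene filter, or used Leiden clusters. The thinned alternative thinned cells before the rule and the gates were applied, so membership of the classes changed with it. Tools were Python 3.11.15, numpy 2.4.6, scipy 1.17.1, pandas 2.3.3 and scanpy 1.11.5.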

Additional observations from a re-analysis of the deposited data

Results flagged for a closer look

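The 12 results below moved in opposite directions in the ribavirin pair and the vehicle pair, out of 128 compared. Those compared included the 3 highest and 3 lowest genes of a class, picked by the ribavirin pair itself. Their number is therefore no measure of how often the pairs differ. Each pair has a single library on either side, so no difference between them was tested. The share of B cells among the less common cells had a ratio of 0.781 under ribavirin and 1.38 in the vehicle pair, and the share of plasma cells 1.30 and 0.227. At 2000 UMIs the B cell ratios were 0.928 (0.726 to 1.18) and 2.24 (1.85 to 2.71), so the ribavirin interval included no change. As a share of all cells kept they were 0.792 (0.628 to 0.993) and 1.07 (0.895 to 1.28), so the vehicle interval did. In B cells the ratio of Ngp was 0.0195 and 6.64, of Camp 0.0213 and 9.29, of Chil3 0.107 and 5.98, and of Top2a 2.62 and 0.695. The ratio of Il1b in classical monocytes was 0.391 and 1.04, and that of Cxcl2 in nonclassical monocytes 0.212 and 2.53. Ifitm3 in cDC1 had ratios of 0.436 and 1.24. Ccr7 had ratios of 0.0643 and 3.01 in cDC2 and of 0.776 and 1.13 in migratory DCs, and Ccl22 of 1.90 and 0.547 in migratory DCs. Several of these turned direction within the ribavirin pair itself under other settings, given below. They were the B cell share, Ngp, Camp and Chil3 in B cells, Ccr7 in cDC2 and Ccl22 in migratory DCs.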

How the results depend on the processing

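The limits are those of single libraries. Classes of under 50 cells in Ribavirin-OVA (ILC2, cDC1, cDC2, migratory DCs, mast cells and basophils) rest on few cells there. The libraries differ in their shallowest cell, and many cells of the ILC2 and monocyte gates were left out by the rule. The Ccr2-free gate, the run with no cell left out and the run without the top cell were chosen after the data were seen. Over all alternatives, single-gene values other than those of Il4, Il5 and Il13 in ILC2 stayed within their counting interval 1113 times, left it 575 times and turned a called direction 30 times. The causes of the moves were not tested. No paired analysis was possible because each group had 1 library and the labels give no replicate numbers. Shares and gene ratios below are log2 values of Ribavirin-OVA over Ribavirin. With at least 1000 UMIs and 500 genes the value was -0.11 for their share in the library. With at least 2000 UMIs the values were -0.17 for their share in the library, -0.58 for the share of NK, 0.66 for the share of plasma cells and 0.21 for the share of pDC. Under 5% mitochondrial UMIs the values were -0.20 for their share in the library, -1.63 for the share of B cells, -1.72 for the share of pDC and -0.99 for Ccl22 in migratory DCs. With cells thinned to 1500 UMIs the values were 0.21 for their share in the library, 1.97 for the share of ILC2, 0.83 for the share of plasma cells, -0.71 for the share of cDC2, 0.30 for the share of classical monocytes, 1.24 for the share of nonclassical monocytes, 1.48 for Il4 in ILC2, 2.11 for Il13 in ILC2, -1.23 for Rrm1 in NK, 0.46 for Chil3 in B cells, 3.10 for Cyp2a5 in olfactory neurons, 2.60 for Cyp2g1 in olfactory neurons, -0.23 for Cysltr1 in ILC2, -0.23 for Mki67 in classical monocytes, 0.016 for Cxcl9 in cDC1 and 0.58 for Ccr7 in cDC2. With cells left out at 1 UMI the values were -0.16 for their share in the library, 0.016 for the share of B cells, -1.30 for the share of classical monocytes, 3.03 for Il13 in ILC2, 0.55 for Camp in olfactory neurons and -1.03 for Ccl22 in migratory DCs. With Leiden clusters the values were -0.035 for the share of ILC2, 0.73 for Ngp in B cells, 0.23 for Camp in B cells, 1.65 for Chil3 in B cells, -0.071 for Bpifb6 in nonclassical monocytes, 0.36 for Camp in olfactory neurons, 0.73 for Cyp2a5 in olfactory neurons, 0.39 for Cyp2g1 in olfactory neurons, -0.50 for Mki67 in classical monocytes and -0.12 for Top2a in classical monocytes. With no cell left out the values were 1.76 for the share of ILC2, 0.87 for the share of plasma cells, -0.41 for the share of pDC, 0.061 for the share of classical monocytes, 4.26 for Il4 in ILC2, 1.59 for Il5 in ILC2, 3.78 for Il13 in ILC2, 1.20 for Cyp2a5 in olfactory neurons, 2.04 for Cyp2g1 in olfactory neurons, -0.093 for Ikzf2 in ILC2 and 0.47 for Ccr7 in cDC2. With Ccr2 out of the monocyte gate the value was -0.40 for the share of classical monocytes. With gates of 5 UMIs the values were -0.11 for Bpifb6 in nonclassical monocytes and 0.47 for Camp in olfactory neurons. With a margin of 2 times between classes the values were 0.71 for Cyp2a5 in olfactory neurons, 0.31 for Cyp2g1 in olfactory neurons and -0.95 for Ccl22 in migratory DCs. Without the cell with most UMIs the value was -0.58 for Ccl22 in migratory DCs.

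Counts of genes at least 2-fold apart moved most. With a pseudocount of 20 CPM they were 127 higher in NK cells, 99 lower in NK cells, 203 higher in B cells, 139 lower in B cells, 325 higher in plasma cells, 90 lower in plasma cells, 89 higher in pDCs, 81 lower in pDCs, 225 higher in classical monocytes, 109 lower in classical monocytes and 126 higher in nonclassical monocytes. With a minimum of 20 UMIs they were 557 higher in NK cells, 789 higher in B cells and 483 higher in nonclassical monocytes. With a minimum of 200 UMIs they were 85 higher in NK cells, 95 lower in NK cells, 103 higher in B cells, 105 lower in B cells, 673 higher in plasma cells, 205 higher in pDCs, 242 higher in classical monocytes, 47 higher in nonclassical monocytes and 95 lower in nonclassical monocytes. With centring on the median gene they were 126 higher in NK cells, 371 lower in NK cells, 126 higher in B cells, 441 lower in B cells, 212 higher in plasma cells, 582 lower in plasma cells, 84 higher in pDCs, 373 lower in pDCs, 254 higher in classical monocytes, 475 lower in classical monocytes, 117 higher in nonclassical monocytes and 310 lower in nonclassical monocytes. With TMM scaling they were 97 higher in NK cells, 424 lower in NK cells, 86 higher in B cells, 504 lower in B cells, 199 higher in plasma cells, 564 lower in plasma cells, 62 higher in pDCs, 414 lower in pDCs, 185 higher in classical monocytes, 608 lower in classical monocytes, 100 higher in nonclassical monocytes and 320 lower in nonclassical monocytes. With a pseudocount of 1 CPM they were 1787 higher in plasma cells and 626 higher in pDCs.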

Other observations

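Epithelial-gated cells, which the CD45 enrichment had not removed, also differed between the libraries. Chil4, the chitinase-like gene of type 2 airway inflammation, stood at 24682 CPM in Ribavirin-OVA and 1213 CPM in Ribavirin, a ratio of 20.3 (19.98 to 20.7), and at 12.2 in the vehicle pair. It was found in 157 of 181 and 57 of 527 cells. Alox15, a lipoxygenase that IL-13 induces in epithelium, stood at 340 and 75.0 CPM, a ratio of 4.54 (4.17 to 4.94), with a vehicle ratio of 5.17. Cpe and Fer1l6 had ratios of 22.6 and 13.2. The gland secretoglobin gene Scgb1b27 stood at 1.30 and 1728 CPM, with 74.6% of the UMIs of Ribavirin in a single cell, and Bpifb9a at 8.86 and 2350 CPM.

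In olfactory neuron-gated cells the odour-clearing cytochrome genes Cyp2a5 (19.1 and 595 CPM) and Cyp2g1 (10.6 and 290 CPM) were lower, with 49.2% and 42.6% of the UMIs of Ribavirin in a single cell. Camp had 8 and 937 UMIs, 90.3% of the latter in a single cell. Spata22, Olfr869 and Olfr794 each had all of their UMIs in 1 cell of Ribavirin-OVA.

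Cells with T cell gate genes but under 2 UMIs of the 3 CD3 genes numbered 60 in Ribavirin-OVA and 21 in Ribavirin, a ratio of 6.48 (3.88 to 11.2) of the less common cells. Cells with macrophage gate genes and under 2 C1q UMIs numbered 37 and 35, a ratio of 2.40 (1.47 to 3.92).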
